A study of Mus musculus with 62 samples.

Results

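Hypoxia-responsive genes were followed from cell to cell in KPC1199-EGFP, a line of mouse pancreatic cancer that carries EGFP. The set has 10 genes chosen by name: Hif1a, Bnip3, Car9, Ndrg1, Vegfa, Egln3, Ankrd37, Slc2a1, Pdk1 and Adm. All 10 had a row in the table, among 19112 gene rows. The cells came from 1 untreated adherent culture of C57BL/6 background at passage 9, grown in serum-containing medium. They were trypsinised, captured and amplified on a Fluidigm C1 chip, a device that isolates cells in separate chambers. The labels state no oxygen level. Each library is 1 cell, so the data hold 1 group with no replicate culture, and no test between groups was possible.

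Of 62 libraries, 50 had under 20% of their counts in ERCC spike-ins, synthetic RNAs added in known amount, and all values below are from these 50 unless stated. Their gene counts ranged from 2153900 to 12868800, with a median of 7194660, and 6832 to 11068 genes were above 0 in each. A level is given in CPM, the count scaled to a common total of gene counts, and a mean ± SD is on the log2(CPM + 1) scale over n = 50 cells. A count of 3 corresponded to between 0.233 and 1.39 CPM, depending on the library. The 7 epithelial and tumour markers (Krt8, Krt18, Krt19, Krt7, Cdh1, Spp1 and Muc1) were each found in 49 or 50 libraries, with summed levels of 7087 to 93970 CPM. Spp1 alone reached 86975 CPM, and the next highest, Krt19, reached 11623 CPM. Of the 8 immune and 6 endothelial markers 0 reached 25 libraries, and their sums ranged from 0 to 33.5 CPM and from 0 to 215 CPM. Among 7 fibroblast markers Col1a1 was found in 41 libraries, at no more than 1.01 CPM, the list's sum ranged from 0 to 75.02 CPM, and Col1a2, Dcn, Pdgfrb and Lum were at 0 in all 50. The defining markers Lyz2, Cd3e, Adgre1, Csf1r, Pecam1, Cdh5 and Kdr were also at 0 in all 50. Of the rest, Egfl7 was found in 20 libraries at up to 215 CPM, Itgam in 23 at up to 1.82 CPM, Cd68 in 10 at up to 33.3 CPM and Ptprc in 1. The fibroblast marker Col3a1 was found in 1 library at 68.0 CPM, and Pdgfra in 2 at up to 6.25 CPM. Their part in the results was not tested.

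As background, cells sense low oxygen through hypoxia-inducible factors (HIF). When oxygen is present, EGLN prolyl hydroxylases mark the HIF alpha subunit for destruction by the VHL ubiquitin ligase. When oxygen falls, the alpha subunit persists, pairs with ARNT and binds DNA at a short core of A or G followed by CGTG. Its targets raise glucose uptake and glycolysis, limit mitochondrial respiration, remove mitochondria, control pH and promote vessel growth. HIF alpha is controlled largely through the stability of its protein, which RNA counts do not read.

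The core motif was looked for in the promoter window of each gene, from 250 bases before to 50 bases after an annotated start. The windows are from RefSeq on build GRCm38.p6, whereas the counts were made with build mm9, and they were matched by symbol alone. A window was found for 9 of the 10 members, 11 windows in all, and Ndrg1 had none in this table. The letters searched were ACGTG and GCGTG on both strands. Both hold a CG pair, and the palindrome CACGTG holds ACGTG on both strands. The 4 windows shown first belong to Bnip3 and Ankrd37, the pair of members that varied together most, and to Aldoc and Pgk1, the genes of highest rank correlation with Bnip3. Those of Hif1a and Slc2a1, whose correlations with Bnip3 were lower, are given for comparison. Capitals mark each match on either strand, and each window runs 5′ to 3′ along its gene.
Bnip3, chr7:138909457-138909756, minus strand: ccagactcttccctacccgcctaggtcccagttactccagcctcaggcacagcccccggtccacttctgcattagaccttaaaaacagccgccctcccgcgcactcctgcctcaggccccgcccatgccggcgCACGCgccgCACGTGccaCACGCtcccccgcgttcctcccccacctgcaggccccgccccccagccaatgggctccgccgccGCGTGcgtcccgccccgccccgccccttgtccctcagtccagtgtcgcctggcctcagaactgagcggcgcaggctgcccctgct
Ankrd37, chr8:45999801-46000100, minus strand: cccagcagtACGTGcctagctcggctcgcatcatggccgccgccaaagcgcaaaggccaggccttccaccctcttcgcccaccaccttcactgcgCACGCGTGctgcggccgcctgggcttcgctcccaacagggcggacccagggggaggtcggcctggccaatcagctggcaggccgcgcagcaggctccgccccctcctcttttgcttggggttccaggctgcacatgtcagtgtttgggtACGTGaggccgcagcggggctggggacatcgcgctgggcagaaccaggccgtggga
Aldoc, chr11:78322823-78323122, plus strand: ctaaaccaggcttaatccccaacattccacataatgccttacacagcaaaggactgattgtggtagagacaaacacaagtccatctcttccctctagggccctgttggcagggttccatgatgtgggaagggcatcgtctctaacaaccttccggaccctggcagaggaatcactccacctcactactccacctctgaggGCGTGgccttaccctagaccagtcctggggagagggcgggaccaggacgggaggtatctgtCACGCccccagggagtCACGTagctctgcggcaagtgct
Pgk1, chrX:106186850-106187149, plus strand: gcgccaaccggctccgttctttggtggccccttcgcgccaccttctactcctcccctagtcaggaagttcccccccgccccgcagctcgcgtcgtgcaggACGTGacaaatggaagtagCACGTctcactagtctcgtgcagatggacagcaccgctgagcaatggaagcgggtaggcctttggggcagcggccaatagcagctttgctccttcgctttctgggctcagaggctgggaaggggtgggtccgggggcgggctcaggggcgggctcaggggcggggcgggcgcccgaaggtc
Hif1a, chr12:73907617-73907916, plus strand: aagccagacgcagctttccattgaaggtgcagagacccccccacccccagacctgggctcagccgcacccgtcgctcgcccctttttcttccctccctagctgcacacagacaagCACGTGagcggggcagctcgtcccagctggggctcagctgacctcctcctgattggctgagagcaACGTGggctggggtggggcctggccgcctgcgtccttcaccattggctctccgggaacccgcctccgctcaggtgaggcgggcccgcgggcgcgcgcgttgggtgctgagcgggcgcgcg
Slc2a1, chr4:119108495-119108794, plus strand: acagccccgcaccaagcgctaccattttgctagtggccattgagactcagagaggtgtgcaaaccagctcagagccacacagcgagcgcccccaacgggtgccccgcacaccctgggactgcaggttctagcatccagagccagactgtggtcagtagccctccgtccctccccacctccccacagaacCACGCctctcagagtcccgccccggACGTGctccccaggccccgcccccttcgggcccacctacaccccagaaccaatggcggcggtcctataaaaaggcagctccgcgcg

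All 9 members with a window held at least 1 match in it or in another of their windows, 7 with ACGTG and 6 with GCGTG. Matches were common in general: of 32851 windows in the table, 43.8% held at least 1 of the motifs, 19.6% ACGTG and 32.4% GCGTG. Among the 14281 windows with at least 10 CG pairs, 68.4% held at least 1, 27.98% ACGTG and 56.57% GCGTG. These shares are per window, whereas a member with more than 1 window was counted once over all of its windows. The Bnip3 window had 5 matches, counting strands separately, and included CACGTG, which 7.15% of all windows held. That share was not taken among windows with at least 10 CG pairs, and the Bnip3 window has 27. The Ankrd37 window had 4, the first Aldoc window 3, and those of Pgk1 and Slc2a1 had 2 each. A match in these letters says nothing of whether a factor bound there. The Hif1a window also held 3 matches, CACGTG among them, and the r of Hif1a with Bnip3 was 0.05. The part of these motifs in the correlations between genes was not tested.

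Among the members, 8 of 10 had counts in no fewer than 25 libraries, against 48.6% of all gene rows. The exceptions were Car9 and Adm. Every library had at least 3 members at 10 CPM or more, the median library had 6, and 0 libraries had 9 or 10. The summed level of the members was between 124 and 3055 CPM, with a median of 490 CPM. The most abundant per unit of transcript length was Bnip3, and the least was Adm.

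**Figure D1:**
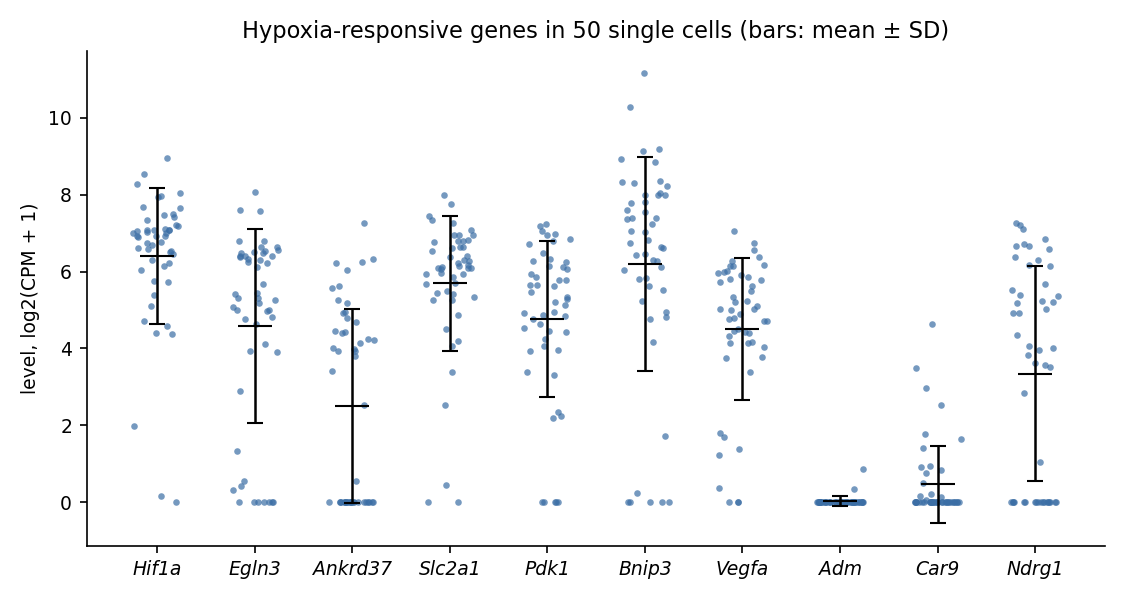
Level of each of the 10 genes, as log2(CPM + 1), in 50 cells; each point is 1 cell, the wide tick is the mean and the bars are 1 SD over cells. Hif1a is at 0 in 1 cell, Ankrd37 and Ndrg1 are at 0 in 23 and 18 cells, and Adm lies at or near 0 throughout.

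Among sensors and regulators, Hif1a encodes the oxygen-regulated alpha subunit. It was above 0 in 49 of 50 libraries (98%, exact Clopper-Pearson 95% interval 89.4 to 99.9, which like the other intervals covers the sampling of cells only). Its level ran from 0 to 496 CPM with a median of 120 CPM, and 50% of the cells lay between 70.4 and 147 CPM. The mean was 6.40 ± 1.77. Library 17 was nearly empty of it, at 0.111 CPM, and library 30 was the cell at 0.

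Egln3 encodes a prolyl hydroxylase that acts on HIF alpha and is itself a HIF target. Its level had a median of 39.02 CPM and a highest value of 267 CPM, and it was at 0 in 7 of 50 libraries. Ankrd37, a HIF target that encodes an ankyrin-repeat protein, was above 0 in 27 of 50 libraries (54%, interval 39.3 to 68.2). Its median was 7.20 CPM over all cells and 20.8 CPM over the cells above 0, with a highest value of 152 CPM in library 24. It stood at 10 CPM or more in 24 cells and at 0 in 23, while the 5 spike-ins nearest in mean count were above 0 in 33 to 50 libraries. Exons of Lrp2bp and Ufsp2 overlap it on the opposite strand by 349 and 57 bases in GENCODE M21, and whether the counting used strand is not given in the sources used here. Lrp2bp was above 0 in 4 libraries. Ufsp2 had a median of 125 CPM. Its correlation with Ankrd37 was r = -0.10, and 0.36 over the 26 cells with both above 0. The part of this overlap in the Ankrd37 counts was not tested. Exons of Hif1a, Bnip3, Car9, Ndrg1 and Slc2a1 also overlap other genes, none of which has a row here.

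Metabolic members were present in most cells. Slc2a1, the glucose transporter GLUT1, was above 0 in 48 of 50 libraries (96%, interval 86.3 to 99.5), with a median of 67.8 CPM and a highest value of 254 CPM. Pdk1 encodes a kinase that inhibits pyruvate dehydrogenase and so limits the use of pyruvate in mitochondria. It was above 0 in 45 libraries, with a median of 37.1 CPM and a highest value of 149 CPM. Their means were 5.70 ± 1.76 and 4.76 ± 2.03. For Slc2a1 the middle 50% of cells lay between 41.7 and 106 CPM, a narrower band relative to the median than that of Pdk1, at 16.3 to 69.3 CPM.

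Bnip3, a mitochondrial protein that promotes removal of mitochondria by autophagy, had the widest range. It was above 0 in 45 of 50 libraries (90%, interval 78.2 to 96.7), with a median of 109 CPM, a middle 50% of 46.1 to 255 CPM and a highest value of 2285 CPM. The mean was 6.20 ± 2.79. Library 19 alone held 21.1% of the summed CPM of Bnip3, and the next highest were library 17 at 1237 CPM and library 42 at 586 CPM. In library 19 Egln3 stood at 194 CPM, its second highest value, and Ndrg1 at 114 CPM. Library 17 had Egln3 and Ankrd37 at 0 and 1 count of Hif1a, with Pdk1 at 114 CPM, Slc2a1 at 110 CPM and Ndrg1 at 35.4 CPM.

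Vegfa and Adm are secreted products that act on vessels. Vegfa, the main vessel growth factor of the family, was above 0 in 47 of 50 libraries (94%, interval 83.5 to 98.7), with a median of 29.8 CPM and a highest value of 133 CPM. Its mean was 4.51 ± 1.85. Of its values above 0, 21.3% were whole within 0.01 of a count, against 100% for 7 of the other members. Adm, the vasodilator peptide adrenomedullin, was above 0 in 2 of 50 libraries (4%, interval 0.488 to 13.7). Its highest value was 0.808 CPM, from 5 counts, so it was at the edge of detection at this depth.

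Car9 and Ndrg1 complete the set. Car9 encodes carbonic anhydrase IX, a cell-surface enzyme for pH control that is widely used as a hypoxia marker. It was above 0 in 16 of 50 libraries (32%, interval 19.5 to 46.7), but in 7 at 1 CPM or more and in 2 at 10 CPM or more. Its highest value was 24.1 CPM, in library 47. Ndrg1, a stress- and differentiation-responsive gene, was above 0 in 32 of 50 libraries (64%, interval 49.2 to 77.1), with a median of 14.7 CPM and a highest value of 153 CPM. It stood at 10 CPM or more in 30 cells and at 0 in 18, while its 5 nearest spike-ins were above 0 in 34 to 49 libraries.

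Levels of different genes were compared only after division by transcript length, taken as the median of protein-coding transcripts in GENCODE M21. On the scale of log2(CPM per kb + 1), Bnip3 led at 5.94 ± 2.70, followed by Hif1a at 4.43 ± 1.43, Vegfa at 4.34 ± 1.81, Slc2a1 at 4.15 ± 1.43 and Egln3 at 3.49 ± 2.04. Below them came Pdk1 at 2.82 ± 1.42, Ankrd37 at 2.56 ± 2.57, Ndrg1 at 2.44 ± 2.13, Car9 at 0.31 ± 0.75 and Adm at 0.02 ± 0.10. For none of the 9 neighbouring pairs in this order did the means differ by more than the larger of the SDs over cells, although for Ndrg1 and Car9 the difference of 2.13 equalled it to the digits given. Bnip3 was the higher of the leading pair in 41 of 50 libraries, and Hif1a was higher than Vegfa in 25. With the longest transcript Vegfa fell to 3.02, below Slc2a1 and Egln3, so its place is uncertain.

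Spread from cell to cell was then set against that of other genes and of the spike-ins. The measure was how far a gene's squared coefficient of variation (CV2) lay, in log2, above the trend for its mean level, ranked among the 12012 genes above 0 in at least 10 libraries. Bnip3 ranked 14, at percentile 99.9, with a CV2 of 2.85. Without library 19 its CV2 was 1.503 and its rank 186, at percentile 98.5. Car9 was at percentile 92.3 and Hif1a at 87.6, and without their own highest library they were at 82.0 and 71.9. Ranked among genes above 0 in at least 1 library, Car9 was at percentile 44.8. Egln3 and Ankrd37 were at 75.3 and 70.2, and fell to 55.1 and 36.8 without libraries 59 and 24. Ndrg1 was at percentile 68.5 and Pdk1 at 53.4. Slc2a1 and Vegfa were at 50.4 and 27.4, and at 32.97 and 17.6 without libraries 32 and 52. Adm was in too few libraries to be ranked.

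Spike-ins carry no biological difference between cells, so their spread shows what capture and amplification add. The 5 spike-in sequences nearest to Bnip3 in mean count, scaled by the spike-in total, had a CV2 of 0.0982 to 0.362, all below the gene's own 2.85 and below its 1.503 without library 19. Hif1a, at 0.556, was above its nearest spike-ins at 0.0982 to 0.362. Ankrd37 was also above them, at 2.47 against 0.578 to 1.497. Ndrg1 lay just above its highest neighbour, at 1.59 against 1.497, and Egln3 at 1.002 against 0.997. Without library 59 the CV2 of Egln3 was 0.836, and its spike-ins, with that library kept, had 0.544 to 0.997. These spike-ins had mean counts of 284 to 338, all below the 408 of Egln3 and the 355 of Pdk1. CV2 tended to fall with mean count, so the range cannot settle whether Egln3 or Pdk1 exceeds spike-ins of equal count. Values for Slc2a1 (0.483 against 0.201 to 0.840), Vegfa (0.663 against 0.294 to 0.997), Pdk1 (0.744 against 0.544 to 0.997) and Car9 (11.4 against 4.04 to 20.1) lay within the range of theirs. For Slc2a1, at a mean count of 565, the spike-ins of higher count had a CV2 of 0.201 to 0.362. Those of lower count had 0.604 to 0.840.

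**Figure D2:**
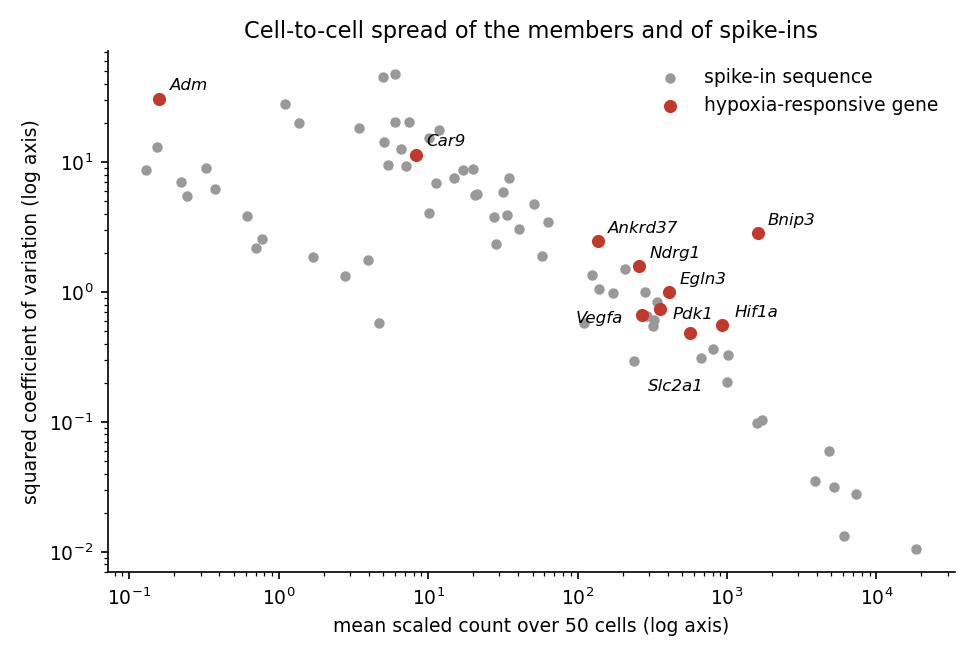
Squared coefficient of variation over 50 cells against mean scaled count, both on log axes, for the 10 genes (red) and the spike-in sequences (grey). Bnip3, at 2.85, stands above the spike-ins of like count, which lie between 0.0982 and 0.362, whereas Vegfa, Pdk1, Slc2a1 and Car9 lie among them.

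Whether the members rose and fell together was read from Pearson r over the 50 cells on log2(CPM + 1). These correlations are descriptions without p-values, because the cells share 1 culture, 1 chip and a range of depths. The 9 members above 0 in at least 10 libraries formed 36 pairs with a median r of 0.09 and a range of -0.29 to 0.46. The median over all 72138066 pairs of the 12012 genes was 0.02. An r of at least 0.3 was found in 6 of the 36 pairs (16.7%), against 3.58% of all gene pairs.

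The highest r joined Bnip3 and Ankrd37, at 0.46 with Spearman rho of 0.52. It stayed between 0.43 and 0.53 when each library was left out in turn, was 0.42 within blocks of 12 label numbers and 0.45 over the 27 cells with both above 0. Next came Hif1a with Egln3 and Egln3 with Pdk1, both at r = 0.40. Hif1a with Egln3 was 0.22 without the 2 cells farthest from the Hif1a median and 0.61 over the 42 cells with both genes above 0. Egln3 with Pdk1 was 0.06 over the 39 cells with both above 0. Egln3 with Ankrd37 (0.34), Bnip3 with Vegfa (0.34) and Hif1a with Pdk1 (0.32) made up the rest. Of these, Bnip3 with Vegfa was 0.14 and Hif1a with Pdk1 was -0.01 where both genes were above 0. Hif1a with Pdk1 was 0.18 without library 30 and 0.46 without library 17. Ankrd37 with Pdk1, at 0.25 over all cells, was -0.14 over the 25 cells with both above 0.

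Other pairs had lower values. Hif1a and Bnip3 had r = 0.05, with rho = 0.22 and r = -0.11 over the 44 cells with both above 0. Without library 17 it was 0.18, and without library 32 -0.01. Slc2a1 had a median r of -0.03 with the other members, Car9 one of 0.02 and Ndrg1 one of 0.05. For Bnip3, Ankrd37, Egln3 and Pdk1 that median was 0.25, 0.24, 0.21 and 0.21. The lowest r of all, -0.29, joined Ndrg1 with Egln3, and it was 0.22 over the 25 cells with both above 0. Vegfa with Slc2a1 was at -0.24.

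**Figure D3:**
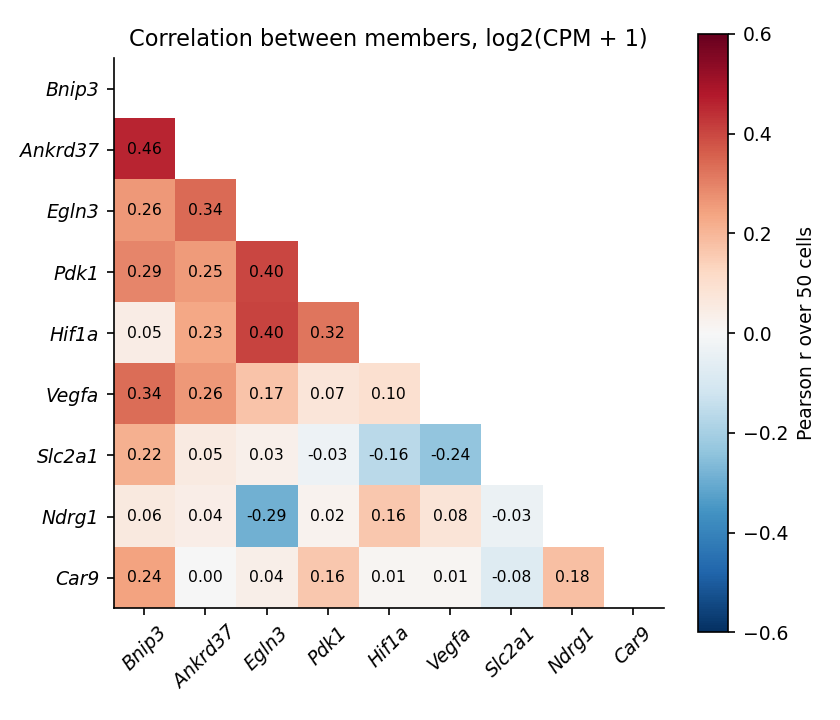
Pearson r over 50 cells for each pair of the 9 genes above 0 in at least 10 libraries, on log2(CPM + 1); red is positive and blue negative. The upper left block of Bnip3, Ankrd37, Egln3 and Pdk1 holds values from 0.25 to 0.46, and the rows of Slc2a1, Ndrg1 and Car9 run from -0.29 to 0.24.

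Library measures were then set beside the members. Over the 9 genes, r with the number of detected genes lay between -0.07 and 0.24, with log2 gene counts between -0.29 and 0.23, and with gene counts per spike-in count between -0.14 and 0.26. Within blocks of 12 label numbers, a possible technical grouping, the 36 pairs had a median r of 0.11 and 5 reached 0.3. With the summed level of 10 S phase genes, Pdk1 had r = -0.34 and Bnip3 r = -0.29, and with 10 mitosis genes Bnip3 had r = 0.02. With 10 immediate early genes, which trypsin treatment can induce, Hif1a had r = -0.40 and Bnip3 r = 0.01. With detected genes regressed out, no r among the 36 pairs of members moved by more than 0.05 and 5 pairs reached 0.3. Bnip3 with Ankrd37 was then 0.43. The summed level of the 7 epithelial and tumour markers had r = 0.36 with Bnip3. Sums of the immune, fibroblast and endothelial markers had r between -0.07 and 0.03 with Bnip3. The part of the S phase, mitosis, immediate early and marker levels in the correlations between members was not tested.

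The genes closest in pattern to each member were named by Spearman rho among genes above 0 in at least 25 libraries. For Bnip3 they were Aldoc, an aldolase of glycolysis, at rho = 0.62, Pgk1, the phosphoglycerate kinase of glycolysis, at 0.61 and the ciliary transport gene Ift81 at 0.59. Aldoc ran from 0 to 1156 CPM with a median of 87.1 CPM, and Pgk1 from 246 to 2745 CPM with a median of 1098 CPM. The r of Bnip3 was 0.48 with Aldoc (0.60 over the 41 cells with both above 0) and 0.44 with Pgk1 (0.58 over 45). The lowest rho belonged to Set, at -0.59, and Ppp1r14b, at -0.59. For Ankrd37 the closest were Gngt2 (rho = 0.61), Aldoc (0.57) and Fam213a (0.55), and the lowest were Morf4l1 (-0.56) and Psmc1 (-0.55). Pdk1 was followed by Uvssa (0.53), Pgk1 (0.52) and Vangl1 (0.52), with Wdr45b and C1qbp lowest at -0.52 for both. Aldoc or Pgk1 thus stood among the 3 closest genes of Bnip3, Ankrd37 and Pdk1.

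**Figure D4:**
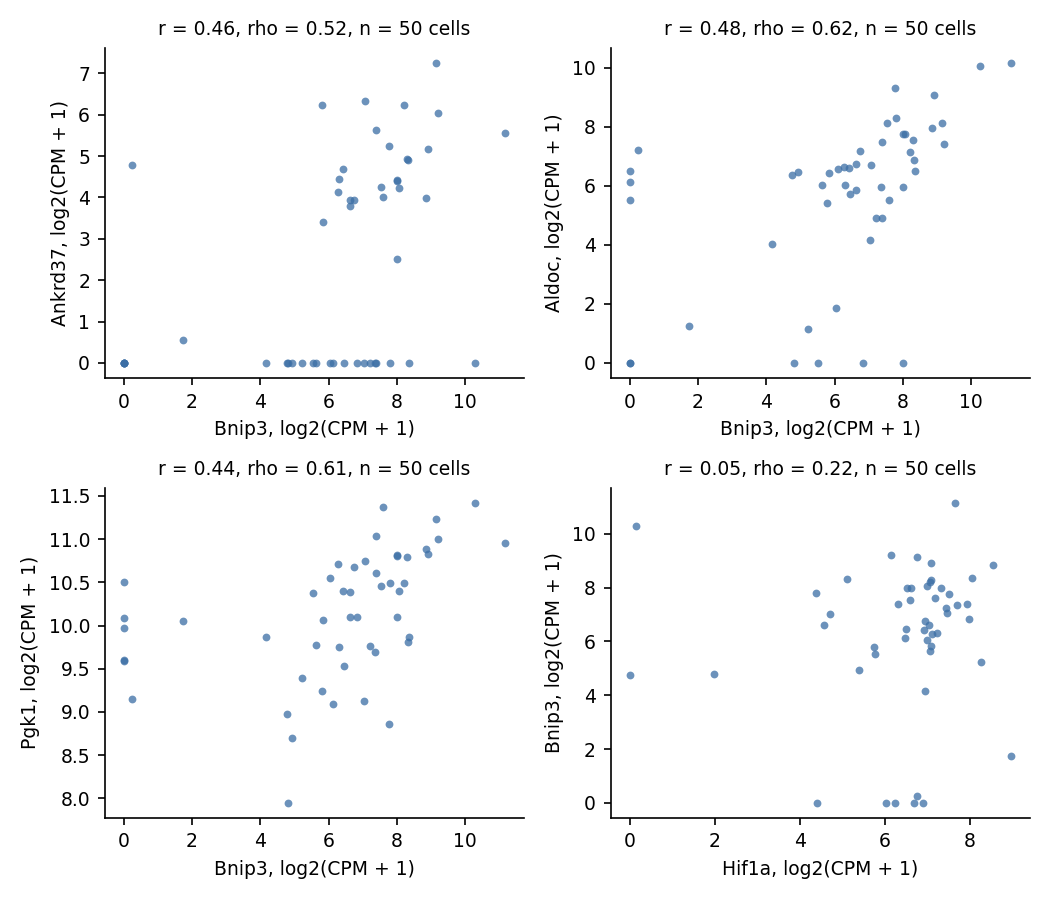
Levels in single cells, log2(CPM + 1), for Bnip3 against Ankrd37, Aldoc and Pgk1 and for Hif1a against Bnip3; each point is 1 of 50 cells, and axes do not all start at 0. Aldoc and Pgk1 are higher in cells with more Bnip3 (rho of 0.62 and 0.61), and for Hif1a and Bnip3 rho is 0.22.

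The other members had different neighbours. Hif1a was closest to the collagen gene Col18a1 (rho = 0.64), the cyclin gene Ccny (0.48) and Arhgef12 (0.47), and lowest with Kars (-0.56) and Ufsp2 (-0.53). Egln3 was closest to Dirc2 (0.55), the surface antigen gene Ly6a (0.55) and 8430408G22Rik (0.53), with Mrps18b (-0.55) and Cnbp (-0.53) lowest. Vegfa was closest to the transcription factor gene Cebpb (0.59), the autophagy gene Map1lc3a (0.55) and Rsph3b (0.53), with Ddx1 and Fat1 lowest at -0.55 for both. Among the genes closest to Ndrg1 were the adhesion receptor gene Cd44 (0.54) and the ferritin heavy chain gene Fth1 (0.50), with Abce1 (-0.65) and Upf3b (-0.58) lowest. Slc2a1 was closest to 4933409K07Rik (0.54), Strn4 (0.50) and Usp10 (0.49). Its lowest were a row whose symbol table software had altered (-0.55) and Camk2a (-0.54), the latter at a median of 0.0492 CPM, under 1 count. Each list is the extreme of the 9282 genes above 0 in at least 25 libraries.

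Taken over the 8 members of this filter, the mean rho was highest for Aldoart1 (0.30), Aldoa (0.29), Orc5 (0.28), Pgk1 (0.28), Aldoc (0.28) and Nav2 (0.27), among 9274 other genes with a median of 0.001. The mean rho of a member with the other members was 0.31 for Bnip3, 0.23 for Egln3, 0.22 for Ankrd37 and 0.21 for Pdk1. It was 0.01 for Slc2a1 and 0.08 for Ndrg1. Aldoart1 is a near copy of Aldoa and had a median of 0.400 CPM, so its counts may be reads of Aldoa, and its place is uncertain. Nav2 had a median of 0.147 CPM.

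Genes of glycolysis and related metabolism known as HIF targets were taken from a list of 18, chosen with earlier results of these data known. Of these, 16 were above 0 in at least 25 libraries, against 48.6% of all gene rows. Slc2a3 was above 0 in 0 of 50, which limits cells with a count, not cells that express it, to 6%. The highest were Gapdh at 12.48 ± 0.44, Ldha at 11.56 ± 0.51, Tpi1 at 10.83 ± 0.55 and Eno1 at 10.79 ± 0.50. Of the 16 tested, 9 had r of at least 0.3 with Bnip3, against 3.63% of all genes and 3.44% of genes above 0 in all 50 libraries. The median r was 0.35, against 0.02 over all genes. Tpi1, the triose phosphate isomerase, was highest at r = 0.56 (0.64 over the 45 cells with both above 0). Pfkp (0.48), Aldoc (0.48), Pgam1 (0.46), Pgk1 (0.44), Gbe1 (0.43), Aldoa (0.42), Pfkl (0.35) and Eno1 (0.34) followed. For Eno1 rho was 0.19, and r ran from 0.24 to 0.43 when each library was left out in turn. Among those below 0.3 were Ldha at 0.28, Gapdh at 0.25, Hk2 at 0.06 and Hk1 at -0.01.

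With Ankrd37, 7 of the 16 reached r of 0.3, against 3.01% of all genes and 2.80% of those above 0 in all 50 libraries, and the median was 0.24. Egln3 had 3, against 4.20% and 2.71%, and Pdk1 had 2, against 2.72% and 2.34%. Slc2a1 had 1, Eno1 at 0.50, against 4.57% and 5.46%. Hif1a had 0 of 16, against 4.60% and 5.32%, with Pgk1 at 0.26 and Pfkl at -0.31. Without library 17, the cell with 1 count of Hif1a, it had 2 of 16, and Pgk1 was at 0.46. Without library 35 Pgk1 was at 0.12. Vegfa, Ndrg1 and Car9 also had 0 of 16, against 3.24%, 2.54% and 2.00% of all genes and 4.45%, 3.99% and 0.918% of those above 0 in all 50. When each library was left out in turn, the count was 7 to 12 for Bnip3, 5 to 8 for Ankrd37 and 2 to 4 for Egln3. It was 2 to 6 for Pdk1, highest without library 58, and 1 to 3 for Slc2a1, highest without library 12. Egln3 was lowest without library 3, and Car9 and Ndrg1 reached 1 without libraries 10 and 11, among others. Differences between members in these counts were not tested. Ranked by median r with the 9 members, Pgk1 (0.26), Ldha (0.25) and Aldoc (0.17) led the list, whose median was 0.11 against 0.02 for all genes.

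**Figure D5:**
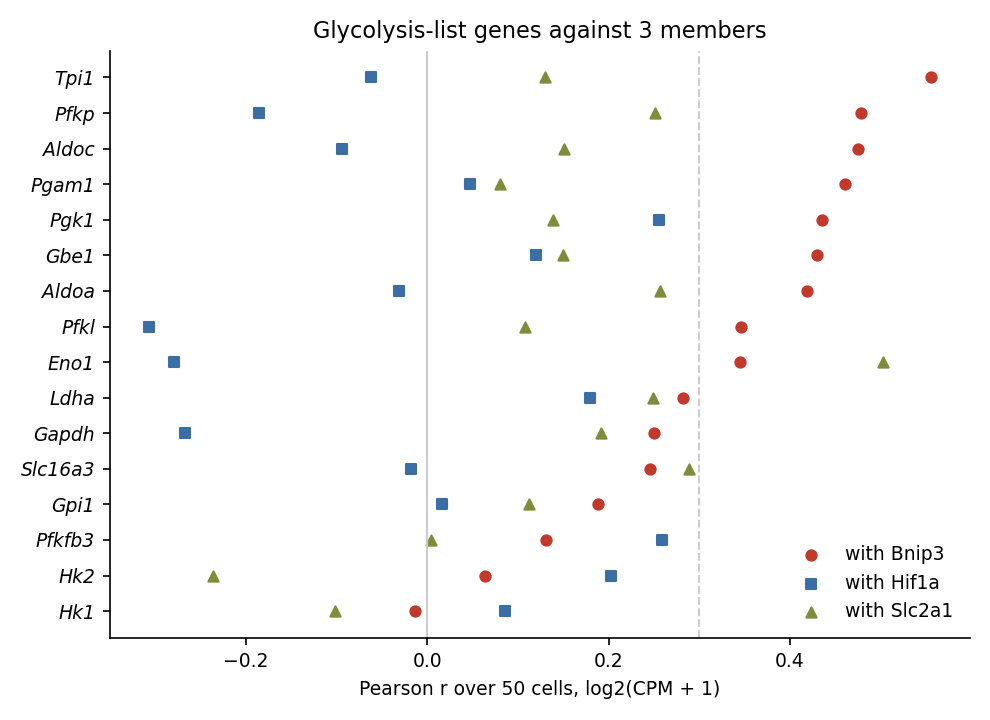
Pearson r over 50 cells of the 16 tested glycolysis-list genes with Bnip3 (circles), Hif1a (squares) and Slc2a1 (triangles); the dashed line marks 0.3. With Bnip3 9 genes lie past the line, with Slc2a1 1 and with Hif1a 0.

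Other HIF targets formed a list of 28 with 26 rows. At least 25 libraries held 17 of them, against 48.6% of all gene rows, and Lox and Tmem45a were at 0 in all 50. Mif, a cytokine, stood highest at 9.77 ± 0.50, followed by the transferrin receptor gene Tfrc at 7.89 ± 0.95, the mitochondrial protein gene Fam162a at 7.87 ± 0.86 and the mitophagy receptor gene Bnip3l at 7.70 ± 0.73. Of 21 tested, 5 reached r of 0.3 with Bnip3, against 3.63% of all genes, and 6 with Ankrd37, against 3.01%. Fam162a had r = 0.47 with Bnip3 and 0.45 with Ankrd37, Mif 0.45 and 0.35, and Bnip3l 0.37 and 0.41. By median r with the members Insig2 (0.22), Ak4 (0.22) and Bnip3l (0.21) led. The list's median was 0.10 against 0.02 for all genes. Ddit4, induced by hypoxia and other stress, was named after its values were known: 14 of 50 libraries held it, at no more than 2.34 CPM. Despite this low level it is 1 of the 6 genes that reached 0.3 with Ankrd37, at r = 0.44.

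The machinery that controls HIF was listed next. Of 15 regulators 13 were above 0 in at least 25 libraries, against 48.6% of all gene rows. Rbx1 (8.88 ± 0.42), Elob (8.74 ± 0.33) and Eloc (8.37 ± 0.53), subunits of the VHL ligase, were above 0 in all 50, the elongins counted under their older names. Cul2, its scaffold, stood at 6.08 ± 2.16 and Vhl itself at 3.47 ± 2.40, at 0 in 14 libraries. The prolyl hydroxylases Egln1 and Egln2 had medians of 32.7 and 14.4 CPM, and the asparaginyl hydroxylase Hif1an one of 21.7 CPM. Arnt, the partner subunit, had a median of 13.5 CPM and was at 0 in 7 libraries, while Arnt2 was in 0 of 50. The coactivators Ep300 and Crebbp had medians of 15.5 and 10.5 CPM, and Cited2, which competes for them, one of 45.2 CPM. Epas1, the HIF2A subunit, was above 0 in 30 libraries at a median of 0.318 CPM, and Hif3a in 14 at no more than 1.74 CPM. With Bnip3 0 of the 14 tested regulators reached r of 0.3, against 3.63% of all genes. The range with Bnip3 was -0.25 for Eloc to 0.28 for Epas1. Over all 9 members 7 of 126 pairs reached it (5.56%), near the 3.58% of all gene pairs. They were Crebbp with Hif1a (0.41) and Egln3 (0.34), Rbx1 with Ndrg1 (0.39), Egln1 with Slc2a1 (0.38), Cul2 with Ankrd37 (0.32), Cited2 with Egln3 (0.30) and Epas1 with Pdk1 (0.30).

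Relatives of the members and receptors of their products were listed as well. Of 21 relatives 10 were above 0 in at least 25 libraries, a share close to the 48.6% of all gene rows. Beside Bnip3 stood Bnip3l, above 0 in all 50 at 52.8 to 738 CPM. Next to Ndrg1 were Ndrg2, at a median of 79.2 CPM in 46 libraries, and Ndrg3, at 36.2 CPM in 40. Pdk3 had a median of 45.7 CPM and Vegfb one of 35.4 CPM. Pdk4 was in 26 libraries, at a median of 0.0920 CPM and up to 61.2 CPM. Car12 was in 2 libraries, and Car2, the cytosolic carbonic anhydrase, was above 0 in 36 at a median of 30.7 CPM. Slc2a2, Slc2a3 and Slc2a4 were in 2, 0 and 4 libraries, so that Slc2a1 was the glucose transporter of this group found in most cells. Kdr and Flt4, receptors for VEGF proteins, were in 0 of 50, and Flt1 in 3. The VEGF co-receptor genes Nrp1 and Nrp2 had medians of 5.46 and 0.371 CPM in 43 and 37 libraries. Calcrl, the adrenomedullin receptor core, was in 42, at a median of 0.466 CPM and up to 92.8 CPM. Its partners Ramp1, Ramp2 and Ramp3 were in 3, 1 and 1.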

How the data were processed

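RNA was read in 62 single-cell libraries of 1 culture, prepared with Nextera XT per the labels' protocols. The authors deposited 1 table of estimated counts for gene symbols and spike-ins, with kallisto and build mm9 named in the submitters' processing notes. For version, annotation and use of strand the sources used here state nothing. Of 19112 gene rows, 17942 symbols matched as given, 1092 after restoring characters altered by table software, and 78 stayed unmatched.

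Libraries with 20% or more spike-in counts were left out (12 of 62). Counts were used unrounded, except for thinning to 2000000, and scaled to CPM by the sum of gene rows, with a pseudocount of 1. No count model was fitted and no p-value computed, since cells of 1 culture are not replicates. Variability used a lowess trend (fraction 0.3). Alternatives were other scalings, pseudocounts, detection limits and library sets. Computations ran in Python 3.11.15 with numpy 2.4.6, pandas 2.3.3, scipy 1.17.1 and statsmodels 0.14.6, and were tested on simulated data. No doublet caller was run. The smallest depth among the 50 libraries, 2153900 gene counts, puts 3 counts at 1.39 CPM, and such limits cover counting error only.

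Members and lists were chosen with earlier results of these data known. The named genes are the members, all HIF regulators, the 4 highest and the 3 of highest median correlation of each target list, relatives and receptors above 0 in at least 25 libraries, and the 3 nearest and 2 lowest genes of each member. Any other gene was chosen after its values were seen. Of the genes these rules name, 1 near Ndrg1 is not reported here.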

Additional observations from a re-analysis of the deposited data

Results flagged for a closer look

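In the 12 libraries left out for their spike-in share, which held 112196 to 1133750 gene counts, signal for 8 of the 10 members exceeded 3 counts. The number of these libraries above 3 counts was 6 for Vegfa, 3 each for Hif1a, Bnip3, Egln3 and Slc2a1, 2 for Pdk1 and 1 each for Car9 and Ndrg1. Ankrd37 had at most 1 count and Adm had 0 in all 12. Library 56 held the highest count of the 12 for Bnip3 (40), Car9 (34.1), Ndrg1 (161), Slc2a1 (195) and Pdk1 (347), and Hif1a was highest in library 43 at 29 counts. The highest Vegfa value, 683 CPM in library 8, exceeded the 133 CPM that was its highest in the other 50. The same held for Pdk1 (306 against 149 CPM), Egln3 (290 against 267 CPM) and Car9 (30.1 against 24.1 CPM), and not for the other members.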

How the results depend on the processing

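The count of 8 members above 0 in at least 25 of 50 libraries was 8 at 1 CPM and after thinning, and 7 at 10 CPM and over all 62 libraries. The median r among members, 0.09, was 0.320 over all 62 libraries, and the cause was not tested. It was between 0.07 and 0.23 under the other alternatives, the highest with scaling by spike-in counts. Of the named pairs, Hif1a with Slc2a1 (-0.16) was 0.18 with that scaling and 0.44 over 62 libraries, and Vegfa with Slc2a1 (-0.24) was 0.04 and 0.23. Bnip3 with Ankrd37 stayed between 0.42 and 0.56. Car9 was in 16 libraries above 0, 7 at 1 CPM and 2 at 10 CPM, and Adm in 2, 0 and 0. With a pseudocount of 0.1 the means of Car9 and Adm were -2.15 and -3.22. No paired analysis was possible because the samples form 1 group. At a depth of 2000000 counts Car9 was in 13 libraries and Adm in 1.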
